A study of Mus musculus with 2 samples.

Results

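Isolated Tdg peaks are the called binding sites on chromosomes 1 to 19 whose midpoint lies over 50 kb from the midpoint of every other peak on the same chromosome. There were 3356 of them among 72227 autosomal peaks, and the whole list held 72970 peaks. The peaks come from a Biotag ChIP-seq library of mouse embryonic stem cells of the line E14 that were labelled Bio-Tdg (n = 1). A library of BirA cells labelled mock (n = 1) belongs to the same series, and no file of it was analysed here. The labels give no further treatment, time or passage, and they do not say whether the cells were 1 clone. The members were chosen by the measured peak positions, so their number and distances are a description. All positions are in the build mm9, counted from 1.

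Tdg is thymine DNA glycosylase, which cuts formylcytosine and carboxylcytosine out of DNA. These bases arise when Tet enzymes oxidise methylcytosine, and their removal is a step of active DNA demethylation. Base excision repair then puts back an unmodified cytosine. In embryonic stem cells the substrates of Tdg are known from promoters and distal regulatory elements. In Biotag ChIP the bacterial ligase BirA adds biotin to a short peptide on the protein, and the bound DNA is recovered on streptavidin. Cells with BirA and no tagged protein show what streptavidin recovers without the protein of interest. Without such values here, none of the isolated peaks can be set against a measured background. No replicate of the Bio-Tdg library was analysed either, and peaks within a library do not stand in for replicates. The comparisons below are therefore given as medians, quartiles and shares, with no test. Exact 95% binomial intervals beside shares cover counting error only, and they are too narrow where peaks cluster.

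Isolated peaks made up 4.65% of the autosomal peaks (4.49 to 4.80%). They covered 3.33 Mb, or 4.27% of the bases in autosomal peaks. Over the length spanned by the peaks of each chromosome there were 1.39 isolated peaks per Mb, against 29.995 peaks of any kind. The median distance from an isolated peak to its nearest neighbour was 90.9 kb, with quartiles of 64.5 and 152 kb. Of the isolated peaks, 1499 (44.7%) had no neighbour within 100 kb, 556 (16.6%) had none within 200 kb and 118 (3.52%) had none within 500 kb. At 1000 kb 24 were left, and at 2000 kb 2 were left. For the 3344 isolated peaks with a neighbour on both sides, the farther neighbour lay a median of 1.92 times as far away as the nearer one (quartiles 1.33 and 3.24), a ratio that cannot be below 1. The other 12 were the first or last peak of a chromosome.

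At the limit itself, the nearest members just inside were a pair on chromosome 14, at 19498746 to 19499266 and 19548729 to 19549305, which lay 50.011 kb apart and held 24 and 25 reads. The next was chromosome 9, 95853842 to 95856115, with 175 reads and a distance of 50.018 kb. Just outside were chromosome 4, 151126747 to 151127296, at 49.999 kb with 22 reads, chromosome 4, 65265256 to 65267048, at 49.994 kb with 130 reads, and chromosome 8, 10855666 to 10856236, at 49.992 kb with 25 reads. Weak and strong peaks stood on both sides of the limit.

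Isolated peaks were weaker and narrower than the other 68871 autosomal peaks. The score is the authors' own value per peak, which in the output of MACS 1.4 rises as the peak's p-value falls. Past 3076, the normal limit of double-precision p-values, that order was not checked. There, 1639 autosomal peaks shared a score of 3100 and 6 had 3233. The median score of isolated peaks was 466 (quartiles 319 and 1046), and that of the other peaks was 559 (338 and 1132), a difference of -92.9. The quartile ranges overlapped over most of their length. The median width was 773.5 bp (585 and 1208) against 856 bp (616 and 1318), a difference of -82.5 bp. Both lists started at the same lowest score of 258, which 28 of 3356 isolated peaks and 438 of 72227 autosomal peaks had. The isolated median was below that of the other peaks on 18 of 19 chromosomes for score and on 19 of 19 for width. Chromosome 3 was the exception for score, with 552 in isolated and 544 in other peaks. The score difference was largest on chromosome 19, at 399.8 against 571. The score difference turned and the width difference all but vanished when only peaks with a score of at least 500 entered the list, as given below.

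Reads per peak could be read back from score and width for 3310 of the 3356 isolated peaks, since every score below 3076 corresponded to an integer read count under a common background rate of 1.13 reads per kb. Isolated peaks held a median of 36 reads (quartiles 25 and 74), and other peaks held 42 (26 and 78). The lowest number was 21 in both. The highest recovered number was 224 in isolated and 239 in other peaks, but reads of the strongest peaks were not recovered. Read density was much closer, at a median of 48.2 reads per kb in isolated and 49.6 in other peaks.

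Among peaks of like width whose reads were recovered, isolated and other peaks had nearly the same read density. The medians leave out the 46 isolated and 1975 other peaks without recovered reads. The lowest score in the list also sets a least read density at each width, in both groups, so part of the likeness is built in. Between 500 and 600 bp the medians were 41.8 and 41.6 reads per kb. Between 800 and 1000 bp they were 50.8 and 51.1, and between 2000 and 3000 bp 71.3 and 72.5. Over 8 width classes from 500 to 3000 bp the ratio of isolated to other ran from 0.984 to 1.04, above 1 in 5 classes and below it in 3. The groups differed in how many peaks fell in each class. Of the isolated peaks, 26.8% were 500 to 600 bp wide, against 22.4% of the others, and 6.53% were 2000 to 3000 bp wide, against 7.37%. Score is computed from reads and width, so these measures are not independent of each other.

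The lower median came with more weak peaks, fewer peaks of middle score and fewer at the very top. A score below 400 was found in 1399 isolated peaks, or 41.7% (40.01 to 43.4%), against 34.7% of the other peaks and 35.0% of all autosomal peaks. A score from 500 to under 1000 was found in 20.9% of isolated peaks (19.6 to 22.3%), against 26.3% of the others and 26.1% of all. Scores from 1000 to under 1500 were equally common, at 10.9% in isolated and 10.96% in other peaks, and those from 1500 to under 2000 made up 7.18% and 6.95%. Scores from 2000 to under 3076 made up 6.70% of isolated and 7.71% of other peaks. Isolated peaks therefore held a full share of peaks from 1000 to under 2000, while the classes on either side differed. In all, 878 isolated peaks (26.2%) had a score of at least 1000, against 28.5% of the others and 28.4% of all autosomal peaks.

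**Figure D1:**
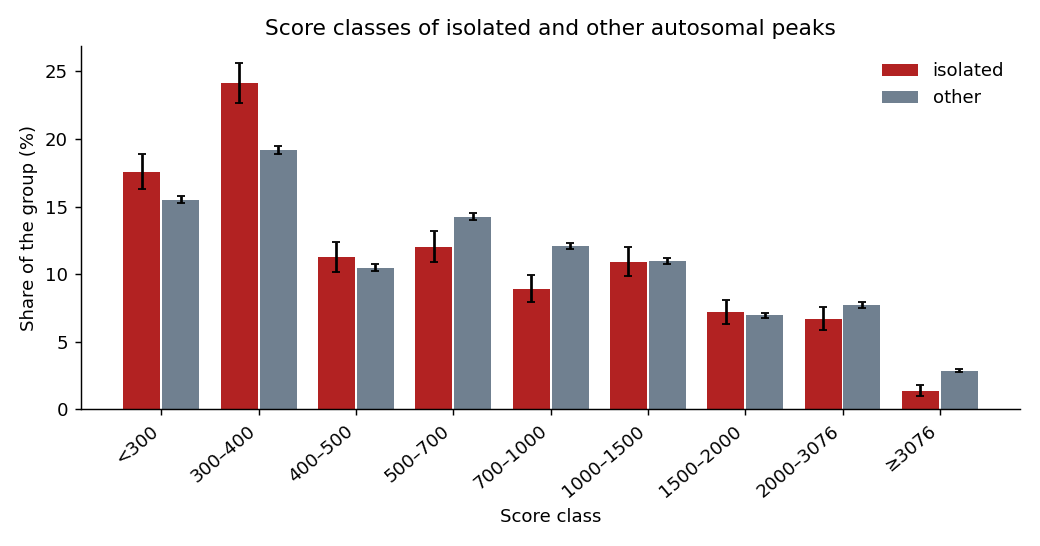
Share of isolated (red, 3356 peaks) and other (grey, 68871 peaks) autosomal peaks in 9 score classes, with exact 95% binomial intervals for counting error. Isolated peaks were more common below 400, less common from 500 to 1000, level from 1000 to 2000 and less common from 2000 up.

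When weak peaks were set aside, the order of the median scores turned. A score of at least 500 was found in 1580 isolated peaks, or 47.1% (45.4 to 48.8%), against 54.8% of the others and 54.5% of all autosomal peaks. These 1580 had a median score of 1091 (quartiles 690 and 1713), and the 37750 other peaks above that limit had 1039 (690 and 1748). The upper quartile was still the lower of the 2 in isolated peaks, and the median widths were 1244.5 and 1246 bp. When the 50 kb rule was applied to those peaks alone, 3625 were isolated. Of these, 2045 had a weaker peak within 50 kb in the full list. The median score was then 1087 in isolated and 1036 in other peaks, and the median width 1255 and 1245 bp. The width difference of 10 bp had a 95% interval of -14 to 36 bp, from the order statistics of the isolated median. That interval leaves out the spread of the other peaks and any difference between libraries, and it is no test.

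At the top of the list isolated peaks were scarce. Scores of at least 3076, above which reads could not be read back, were found in 46 isolated peaks, or 1.37% (1.01 to 1.82%), against 2.87% of the other peaks and 2.80% of all autosomal peaks. Widths of at least 3000 bp were found in 26 isolated peaks, or 0.775% (0.507 to 1.13%), against 1.99% of the others and 1.93% of all. The ratios of isolated to other were 0.478 and 0.390. The 46 strongest isolated peaks were spread over all 19 autosomes. They had a median width of 2835 bp and a median distance to the nearest peak of 78.8 kb. The commonest score in this range, 3100, was shared by 35 of 3356 isolated peaks and by 1639 of 72227 autosomal peaks. Score therefore does not rank the isolated peaks of this range.

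By the deposited score, the 5 highest isolated peaks lay on chromosomes 3, 1 and 5. Their scores were past 3076, where reads could not be read back. A score above the shared value of 3100 was therefore not shown to mean a stronger peak. The first was chromosome 3, 40752806 to 40755283, with a score of 3205, a width of 2478 bp and neighbours at 56.1 and 88.7 kb. The second was chromosome 1, 179186893 to 179189692, with a score of 3202 and a width of 2800 bp. Its nearer neighbour was 64.3 kb away and its farther one 260 kb. On chromosome 5 a peak at 32912476 to 32914644 had a score of 3194 and a nearest distance of 97.6 kb, and a peak at 35103380 to 35105654 had 3189 and 78.7 kb. These 2 had 47 and 50 peaks between 50 and 500 kb away, above the isolated median of 12 and below the median of 59 in other peaks. The fifth was chromosome 1, 52288514 to 52290834, with a score of 3170 and neighbours at 62.2 and 60.5 kb. All 5 were 2169 to 2800 bp wide, far above the isolated median.

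The widest isolated peak was chromosome 17, 39979808 to 39985908, with 6101 bp and the shared score of 3100. It had no other peak within 500 kb, its neighbours being 674 and 1819 kb away. In mm9 this stretch is known as the place of Rn45s, the gene of the 45S precursor of ribosomal RNA. Ribosomal RNA genes are present in many copies in the mouse genome. The name is background knowledge and was not checked against an annotation here. The next widest was chromosome 3, 148648947 to 148653999, with 5053 bp and neighbours at 65.7 and 82.04 kb. A peak on chromosome 18 had 4704 bp, chromosome 13, 89878220 to 89882828, had 4609 bp, and chromosome 11, 31268186 to 31272223, had 4038 bp. Their scores were 3100 as well. The peak on chromosome 11 was also the highest in score among the isolated peaks of that chromosome.

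The 5 most distant peaks held from 30 to 140 reads. Chromosome 14, 109312799 to 109313454, lay 2762 kb from its nearest neighbour and 2825 kb from the other, and held 30 reads in 656 bp. Chromosome 14, 6093484 to 6094314, was the first peak of its chromosome, lay 2488 kb from the next and held 33 reads in 831 bp. Chromosome 8, 52000300 to 52002535, was the strongest of the 5, with 140 reads in 2236 bp and neighbours at 1880 and 2596 kb. Chromosome 15, 18748247 to 18749047, held 54 reads in 801 bp at 1630 kb, and chromosome 5, 56182783 to 56183690, held 44 reads in 908 bp at 1551 kb. So 2 of the 5 had fewer reads than the isolated median of 36 and 3 had more.

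Across all autosomal peaks the score declined in steps with the distance to the nearest peak, from 2 kb outwards. The median score was 643 for peaks with a neighbour at 2 to 5 kb, 568 at 5 to 10 kb, 535 at 10 to 20 kb and 521 at 20 to 50 kb. Past the limit it was 481 at 50 to 100 kb (1857 peaks), 461 at 100 to 200 kb (943 peaks), 432 at 200 to 500 kb (438 peaks) and 419.8 beyond 500 kb (118 peaks). The median was therefore lower in each class from 2 to 5 kb outwards, on both sides of the limit, and the difference between the classes that meet at 50 kb was larger than those between the classes next to them. Width ran in the same way up to 500 kb, from 925 bp at 2 to 5 kb to 829 bp at 10 to 20 kb, 824 bp at 20 to 50 kb, 784 bp at 50 to 100 kb, 774 bp at 100 to 200 kb, 716 bp at 200 to 500 kb and 723 bp beyond. The share with a score of at least 1000 was 34.2% at 2 to 5 kb, 27.7% at 50 to 100 kb and 18.6% beyond 500 kb. The closest peaks broke the series. With a neighbour at 1 to 2 kb (16996 peaks) the median score was 574 and the median width 870 bp, both below those at 2 to 5 kb. With a neighbour within 1 kb (4504 peaks) they were 354 and 634 bp, the lowest of all classes. Against the 5682 non-isolated peaks whose neighbour was over 20 kb away, the isolated medians differed by -54.5 score units and -50.5 bp.

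**Figure D2:**
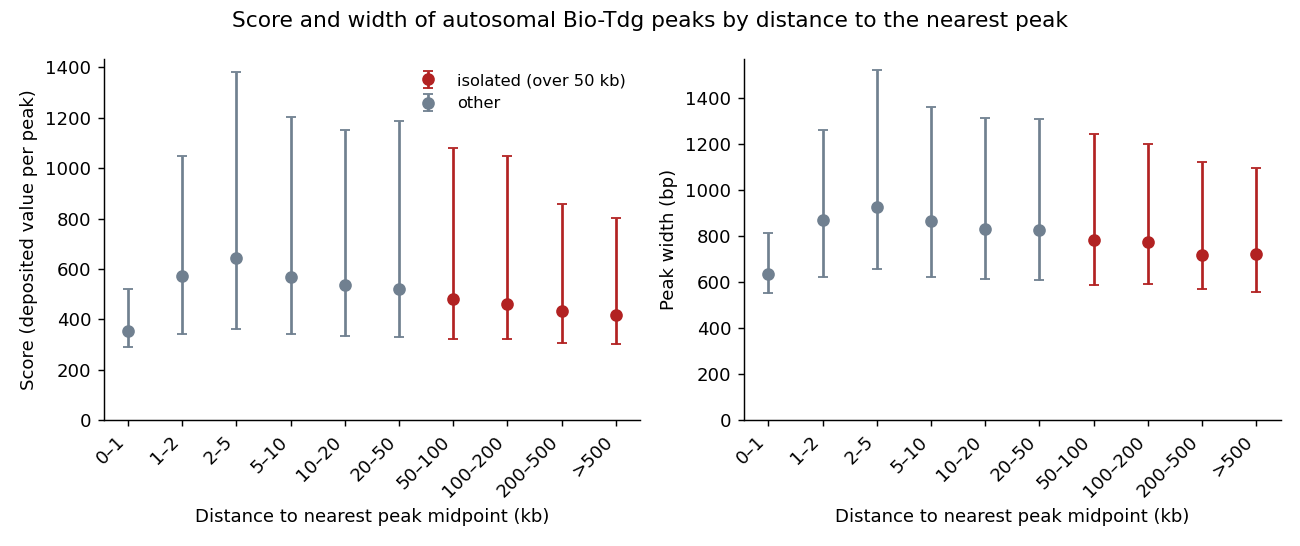
Median score (left) and width in bp (right) of autosomal peaks by distance to the nearest peak midpoint in kb, with bars from the lower to the upper quartile, isolated peaks in red and others in grey. From 2 to 5 kb outwards the median score decreased from 643 to 419.8, with 521 just below and 481 just above the limit of 50 kb.

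Isolated peaks lay in sparse surroundings far beyond the distance the rule clears. The rule empties 50 kb on each side, so the surrounding megabase was counted without that inner part. Between 50 and 500 kb away, isolated peaks had a median of 12 other peaks (quartiles 5 and 24), and the other peaks had 59 (33 and 94). The whole window of 1 Mb, inner part included, held 12 against 68. The count between 50 and 500 kb away also declined with the distance to the nearest peak on both sides of the limit. Its median was 57 at 5 to 10 kb, 44 at 10 to 20 kb and 31 at 20 to 50 kb. Past the limit it was 18 at 50 to 100 kb and 10 at 100 to 200 kb. Sparser surroundings were therefore not particular to the isolated peaks. Of the other peaks, 6.01% had 12 or fewer peaks between 50 and 500 kb away, and 2.29% of the isolated peaks had 59 or more. The isolated median was the lower on all 19 chromosomes, from 9 on chromosome 3 to 17 on chromosomes 7 and 11. Peak density was uneven along the chromosomes, so the emptiness of the inner part and the count in the outer part are not independent measures.

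Over 40 peaks between 50 and 500 kb away were found around 289 isolated peaks (8.61%) and around 46584 other peaks (67.6%). The isolated peak with the most, chosen after its value was seen, was chromosome 8, 73550181 to 73550764, with 136 such peaks, a nearest distance of 112 kb and 24 reads. Isolated peaks were less strong than other peaks in each of 7 classes of surroundings, from 0 to over 40 peaks. With 0 peaks between 50 and 500 kb away the median scores were 419.8 in 118 isolated and 564 in 124 other peaks. With 6 to 10 they were 496 and 533, with 11 to 20 475 and 513, and with over 40 448 and 578. Within the isolated peaks the median score did not rise steadily with the surroundings, going from 419.8 at 0 to 496 at 6 to 10 and back to 448 at over 40.

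**Figure D3:**
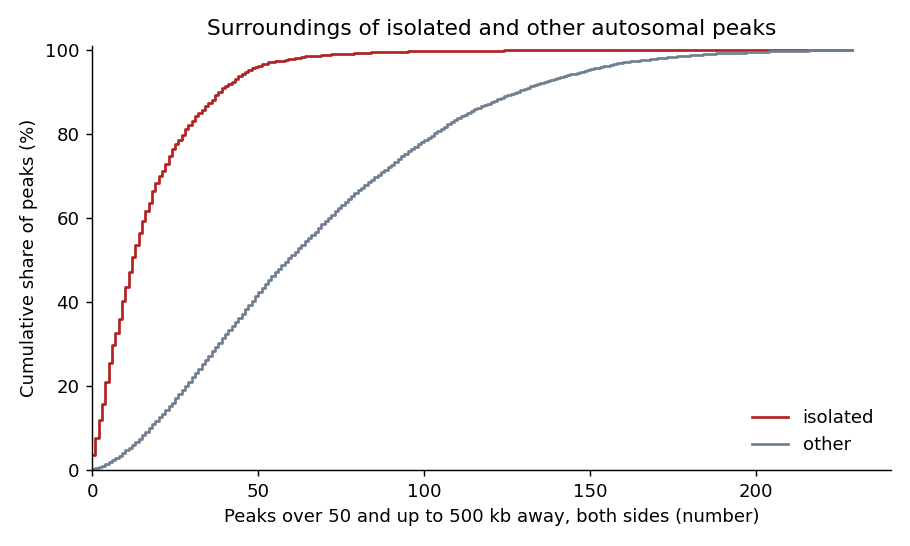
Cumulative share (%) of isolated (red) and other (grey) autosomal peaks by the number of peaks over 50 and up to 500 kb away on both sides. The medians were 12 and 59, and the highest isolated count was 136.

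Along the chromosomes, isolated peaks formed 1715 runs of consecutive isolated peaks, of which 937 held a single peak. The other 2419 isolated peaks (72.1%) had an isolated peak next to them. Runs are made of the distances that the rule used, so their number and length are a description. Runs of 5 or more numbered 117 and held 718 peaks, or 21.4%. Median scores were 485 for the 937 peaks alone, 468 in runs of 2 to 4 and 451 in runs of 5 or more, differences that are small beside the quartiles of 316 and 1027 in the last class. The medians of 22, 12 and 5 peaks between 50 and 500 kb away follow in part from the definition, since a run of peaks over 50 kb apart limits how many can lie in that window.

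The longest run was on chromosome 14, from 89555503 to 98989496, with 12 isolated peaks over 9.43 Mb and no other peak in between. Of these, 8 had a score below 400, a range that held 41.7% of all isolated peaks and 35.0% of all autosomal peaks. The reads ran from 21 to 217 per peak. The 2 strongest were at 98566145 to 98569200, with 217 reads in 3056 bp and a nearest distance of 421.5 kb, and at 94289426 to 94291238, with 128 reads in 1813 bp and a nearest distance of 1064 kb. Peaks of 21 and 22 reads, at 93225899 to 93226432 and 90832878 to 90833418, lay in the same run. Weak and strong isolated peaks thus occurred within the same sparse stretch. Runs of 11 followed on chromosomes 8, 5 and 3, over 5.77, 2.57 and 2.19 Mb, with median scores of 307, 437 and 493.

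The number of isolated peaks per Mb varied less between chromosomes than the number of all peaks. All peaks ran from 19.4 per Mb on chromosome 14 to 55.8 on chromosome 11, a 2.88-fold range. Isolated peaks ran from 1.14 per Mb on chromosome 17 to 1.80 on chromosome 18, a 1.58-fold range. As a share of a chromosome's peaks they were most common on chromosome 3, at 249 of 3088 or 8.06% (7.13 to 9.08%), followed by chromosomes 18, 13 and 14 at 7.75%, 7.68% and 7.21%. The interval of chromosome 3 overlaps those of these 3. They were least common on chromosome 11, at 137 of 6626 or 2.07% (1.74 to 2.44%). Chromosomes 17, 19 and 4 came next, at 2.96%, 3.18% and 3.28%, and their intervals overlap each other. The interval of chromosome 11 touches that of chromosome 17, which starts at 2.43%. Chromosome 11 held 9.17% of all autosomal peaks and 4.08% of the isolated ones.

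Over the 19 chromosomes the isolated share went with peak density, with Spearman's rho of -0.953 and Pearson's r of -0.898. Without chromosomes 11 and 14, the farthest from the median density, they were -0.953 and -0.927. Isolated peaks per Mb went with density less closely, with a rho of -0.646 and an r of -0.631. The rule fixes much of this, because peaks are closer to each other where there are more of them, and all chromosomes share a single library. Median scores of isolated peaks ran from 399.8 on chromosome 19 to 552 on chromosome 3, and median widths from 700 bp on chromosome 19 to 828.5 bp on chromosome 9. The median nearest distance ran from 73.7 kb on chromosome 7 to 108 kb on chromosome 15.

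**Figure D4:**
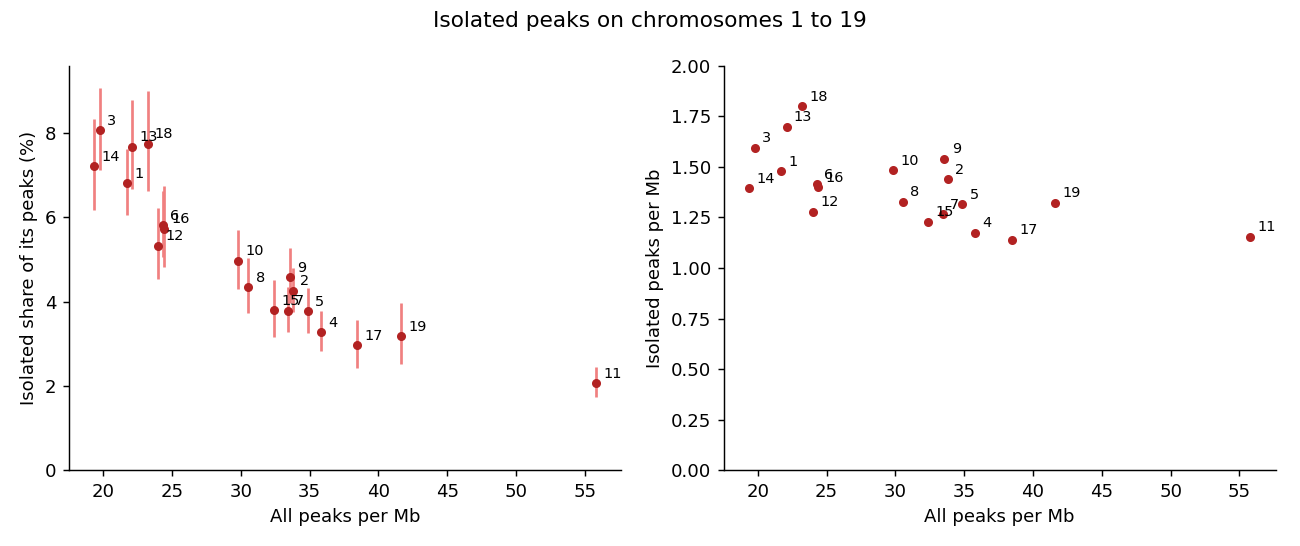
Isolated share of each chromosome's peaks in %, with exact 95% binomial intervals (left), and isolated peaks per Mb (right), against all peaks per Mb for chromosomes 1 to 19, each point labelled by its chromosome. The share decreased from 8.06% on chromosome 3 to 2.07% on chromosome 11, while isolated peaks per Mb stayed between 1.14 and 1.80.

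Along the chromosomes the isolated share was highest at low coordinates, the side of the centromere in mouse chromosomes. When the span of each chromosome's peaks was cut into 10 equal parts, 8.82% of the peaks in the first part were isolated (8.03 to 9.65%) and 2.64% in the last (2.35 to 2.96%). All peaks numbered 20.1 per Mb in the first and 46.04 in the last part. Isolated peaks went the other way, from 1.77 to 1.22 per Mb, and stayed within a 1.45-fold range over the 10 parts. The share was higher in the first than in the last part on 17 of 19 chromosomes. Chromosomes 7 and 19 had the reverse order, with 1.40% in the first and 4.39% in the last part on 7, and 0.308% and 7.98% on 19.

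**Figure D5:**
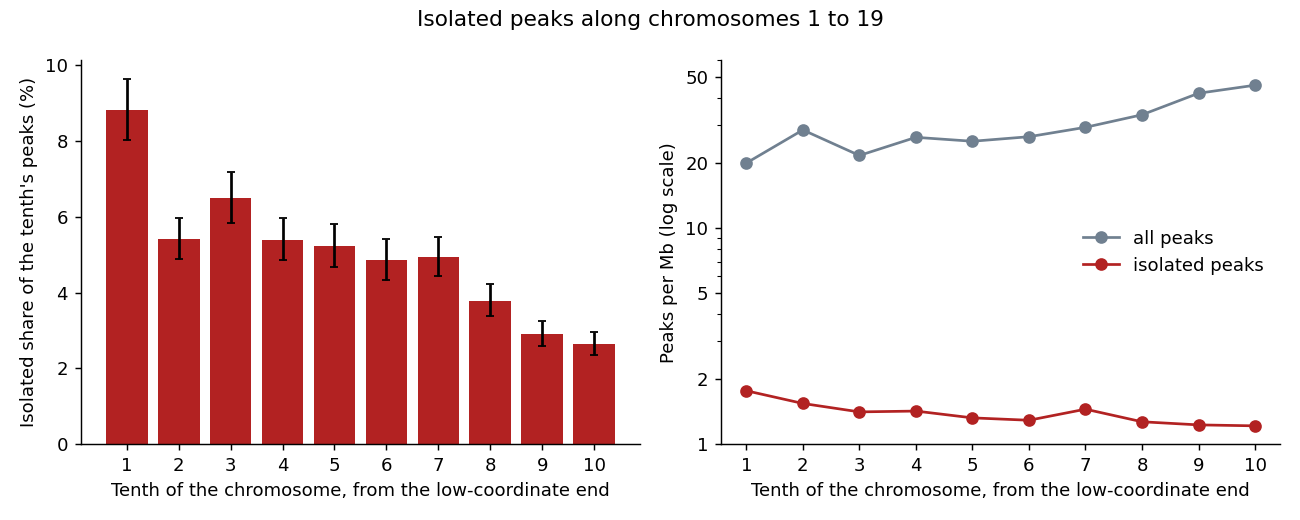
Isolated share of the peaks in % with exact 95% binomial intervals (left), and all peaks (grey) and isolated peaks (red) per Mb on a log axis (right), in 10 equal parts of chromosomes 1 to 19 counted from the low-coordinate end. The share decreased from 8.82% to 2.64% from the first to the last part, while all peaks went from 20.1 to 46.04 per Mb.

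The genes and sequence at the isolated peaks were not analysed here, since no mm9 genome or annotation was used. Gene and promoter tables of GRCm38.p6 were at hand, and their coordinates cannot be set beside positions in mm9.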

How the data were processed

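ChIP-seq peaks of 1 library, Bio-Tdg, were used. The list gives start, end, name and score per peak, without a header. CASAVA 1.8, Bowtie 0.12.7 and MACS 1.4.1 and the build mm9 are listed in the submitters' processing notes, but not what each was used for. The calling threshold and any control or filter are not stated in those notes. The score is the value deposited by the authors.

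Distances were taken between midpoints of neighbouring peaks on a chromosome. Reads were recovered for 70938 of 72970 peaks, those with a score below 3076, the normal limit of double-precision p-values. A common rate was fitted so that each score lay within 0.01 units of the Poisson tail of an integer count, using 370 bp for the 9 narrower peaks. The largest deviation was 0.00517. If the caller's tail included the number itself, each count would be 1 higher. The depth of the library is unknown. Recovery, the rule and the window counts were tested on simulated data, where a common rate gave back 100% of the reads of 20000 peaks. Those scores were drawn from the model that the recovery assumes. With a rate that varied between peaks, reads were recovered for 9.1% of 20000 simulated peaks, and 0.135% of scores lay within 0.01 units.

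The members, the comparisons and the alternatives were chosen with earlier results of these data known. Named peaks are the 5 highest in score (ties by width), the 5 widest, the 5 most distant, the highest in score of the chromosomes with the highest and lowest isolated share, the longest run, and 3 peaks on each side of the limit. Coordinates on chromosome 18 are not reported. Peaks outside chromosomes 1 to 19 were not used, except on X in the additional observations. The software was Python 3.11.15 (numpy 2.4.6, pandas 2.3.3, scipy 1.17.1; figures with matplotlib 3.10.9).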

Additional observations from a re-analysis of the deposited data

Results flagged for a closer look

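Chromosome X lies outside the rule, and no mock value can be given for it. By the same limit of 50 kb, 195 of its 715 peaks were isolated, or 27.3% (exact 95% binomial interval 24.04 to 30.7%), above the share on any autosome. On the autosomes the share went with peak density, much of it by the rule, and the density of X was not computed. The order of the groups was the reverse of that on the autosomes. The median score was 489 (quartiles 316 and 677) in isolated and 392 (303 and 630) in other X peaks, and the median width 824 and 701.5 bp. Strong peaks were no more common among the isolated ones, with 6.15% (3.22 to 10.5%) at a score of at least 1000 against 7.31% (5.22 to 9.89%). Among the other X peaks, the 225 with a neighbour within 5 kb had a median score of 381 and the 295 with a more distant one 409. The difference between X and the autosomes was not tested.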

How the results depend on the processing

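No value has a replicate. The depth and the calling limit are unknown, so a neighbour too weak to be called would not be seen. No paired analysis was possible because only the Bio-Tdg library has values. The share of 4.65% was 10.03% with a limit of 25 kb, 2.08% with 100 kb, 6.19% after merging peaks less than 1 kb apart, 9.22% among scores of at least 500, and 4.91% without chromosome 11. These settings change the rule or the list, and the share moves with them by construction. The score difference of -92.9 was -63.5 with 25 kb, -123.7 after merging and -54.5 against other peaks with a neighbour over 20 kb away, and turned to 51.4 among scores of at least 500. The width difference of -82.5 bp was -60, -163 and -50.5 bp in the same settings, -103 bp with 100 kb, and 10 bp (-14 to 36) among scores of at least 500. On X alone the share was 27.3% and the differences were 97.02 and 122.5 bp. The cause of the reversals was not tested. Leaving out each autosome in turn gave score differences from -98.2 to -88.8 and width differences from -90 to -78 bp. The share of chromosome 3 was 3.90 times that of chromosome 11, and 2.99 times with 25 kb, and it has no value without chromosome 11. The difference of -47 peaks between 50 and 500 kb away was -42 with 25 kb, -52 with 100 kb, -35 after merging, -26 among scores of at least 500, -44 without chromosome 11, -56 with the inner part counted and -80 up to 1 Mb away. The settings with 20 kb, X, each autosome other than 11, and recovered reads only were added after seeing the data. Gaps between peak edges in place of midpoints changed none of these 5 results beyond their intervals.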
